A study of Homo sapiens with 9 samples.

Results

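The 43 genes described here carry glucose from uptake to pyruvate, lactate and the pyruvate dehydrogenase complex. They were taken by name, as a fixed set, from the 27315 gene entries of the deposited table, where all 43 occur, and 40 of them are among the 13165 genes with a level high enough to be tested. The cells are MDA-MB-468, a cell line from a human breast cancer without hormone receptors or HER2 amplification (triple-negative), grown in RPMI medium with serum. All 9 libraries come from cells infected with lentivirus carrying a pLKO.1 short hairpin vector, which is selected with puromycin, so the controls share infection and selection. The libraries are 3 with the BBOX1 hairpin named sh6, 3 with the BBOX1 hairpin named sh1 and 3 with a scrambled control hairpin. BBOX1 encodes gamma-butyrobetaine hydroxylase, the last enzyme of carnitine synthesis, and the comparison asks which transcripts differ once it is depleted. The protocol gives target sequences for hairpins named sh1 and sh2, and no label says which sequence sh6 carries or whether the infected cells were kept as a pool or a clone. Whether the triplicates were grown as separate cultures is not stated, and the spread behind each p-value may therefore be technical only.

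Glycolysis splits glucose into pyruvate in the cytosol. Glucose enters through carriers of the SLC2A family, is trapped by hexokinase, and is committed to the pathway by phosphofructokinase, whose activity is tuned by fructose 2,6-bisphosphate. Pyruvate is then either reduced to lactate by lactate dehydrogenase and exported by monocarboxylate carriers of the SLC16A family, or taken into mitochondria by the MPC carrier and oxidised by pyruvate dehydrogenase, which the PDK kinases switch off. Many of these genes are known targets of the hypoxia-inducible factors, and breast cancer cells of the basal type are known for high glucose uptake and lactate output.

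Polyadenylated RNA was sequenced in paired reads of 100 bases. The deposited table is called batch-corrected in its name, and no batch or method is stated. The depth recovered from its values was 16051157 to 18860352 reads per library with sh6, 15726046 to 16212387 with sh1 and 16718172 to 19731563 in the controls. BBOX1 itself had normalised counts of 580.6 to 618 with sh6 and 324 to 346 with sh1, against 2360 to 2785 in the controls, so that its mean was 23.0% of the control mean with sh6 and 12.7% with sh1. For either hairpin the exact two-sided permutation p is 0.1, the smallest that 3 against 3 libraries allow. All 10 basal and epithelial markers lay above the level needed for testing, with summed counts of 145067 to 149429 with sh6, 146851 to 152280 with sh1 and 138804 to 149346 in the controls. Of 3 genes that define hormone receptor and HER2 status, PGR was listed at 0 in every library, while ESR1 (mean counts of 109 with sh6, 242 with sh1 and 227 in the controls) and ERBB2 (602, 753 and 1091 in the same order) lay above that level. Their summed counts were 683 to 753 with sh6, 978 to 1018 with sh1 and 1284 to 1369 in the controls. Of 5 leucocyte markers only CD68 lay above that level, and their summed counts were 143 to 151 with sh6, 86.5 to 96.6 with sh1 and 200.1 to 229.8 in the controls. Of 4 endothelial markers only KDR did, and the sums were 88.4 to 111 with sh6, 86.2 to 116 with sh1 and 237 to 267 in the controls, while of 6 fibroblast markers only COL1A1 did. The part of these low genes in the results was not tested. The total normalised count of a library was 17180837 to 17266898 with sh6, 15915553 to 16146718 with sh1 and 17316682 to 17387504 in the controls. In bulk RNA of this kind, fewer cells with a transcript and less transcript per cell cannot be told apart.

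Among the 40 members tested, falls outnumbered rises with each hairpin. Calls rest on limma's test over all 13165 genes, with an adjusted p under 0.05. Normalised counts and the folds made from them are on a linear scale, while log2 changes and their standard errors (SE) are differences on the deposited log2-like scale, which understates the change of low genes. With sh6 20 members fell, where 33.6% of all genes tested fell, and 11 rose, where 34.2% of all genes rose. With sh1 24 members fell and 10 rose, where 30.0% of all genes fell and 29.0% rose. With both hairpins 15 members fell, or 37.5% of those tested, where 19.4% of all genes did, and 5 rose, or 12.5%, where 18.9% of all genes did. The members that fell with both were SLC2A3, SLC2A12, HK1, HK2, PFKFB4, TPI1, PGK1, PGAM1, LDHA, PDK1, PDK3, PDHB, MPC2, PGM1 and PGM2, of which LDHA turned to 0.10 with sh1 under quantile normalisation. In that setting HK1 with sh1 (log2 change -0.005, adjusted p = 0.936) and PDHB with sh6 (-0.128, 0.0756) lost their calls. Those that rose with both were SLC2A8, PFKM, PFKP, PFKFB2 and ENO2. Another 7 members, or 17.5%, were called in opposite directions with the 2 hairpins, where 6.4% of all genes tested were. Their number was 4 under quantile normalisation, where ENO1, PKM and LDHB left it. The median log2 change of the members was -0.11 with sh6 and -0.18 with sh1, against 0.01 and 0.00 over all genes tested. Both comparisons use the same 3 control libraries. With sh6 the libraries overlapped the controls for SLC2A10, ADPGK, PFKL, ALDOA, GAPDH, PDK2, PDK4, PDHA1, PDHB and DLAT, and with sh1 for SLC2A1, PFKL, PFKFB3, GAPDH, PDK2 and MPC1. For the other tested members no hairpin library lay within the control range in that comparison. The share of all genes tested without such overlap is not given here, so this only describes each member. The 3 members too low to test were HKDC1, ALDOC and ENO3.

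The sh1 libraries have a lower total normalised count than the others, and several small changes with sh1 turn on how libraries are scaled. With all libraries set to the same total, which moves the median of all genes tested by 0.10 on the log2 scale with sh1, 17 members fell and 12 rose with sh1, 11 fell and 6 rose with both hairpins, and 6 were called in opposite directions, with SLC2A1 in and ENO1 and LDHB out. The calls lost with sh1 were SLC2A3 (log2 change -0.16, adjusted p = 0.115), HK1 (-0.02, 0.777), PFKL (-0.07, 0.331), ENO1 (-0.07, 0.274), LDHA (-0.11, 0.0812), LDHB (-0.06, 0.320) and PDHB (-0.08, 0.306), and SLC2A1 (0.13, 0.0356) and GPI (0.23, 0.00063) became higher. Under quantile normalisation 17 members fell and 13 rose with sh1, and 12 fell and 7 rose with both. The share of all genes called under either scaling is not given here, so these counts cannot show whether falls exceed that share. Under quantile normalisation GAPDH (0.29, 3.5e-05) and ENO1 (0.17, 0.00742) were called higher with sh1. The falls of SLC2A12, HK2, PFKFB4, TPI1, PGK1, PGAM1, PDK1, PDK3, MPC2, PGM1 and PGM2 and the rises of SLC2A8, PFKM, PFKP, PFKFB2 and ENO2 with both hairpins were called under either scaling. Under median centring the calls of PGAM1 with sh6 (-0.119, adjusted p = 0.0556), HK1 with sh1 (-0.111, 0.0691) and PDHB with sh6 (-0.117, 0.108) were lost.

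**Figure D1:**
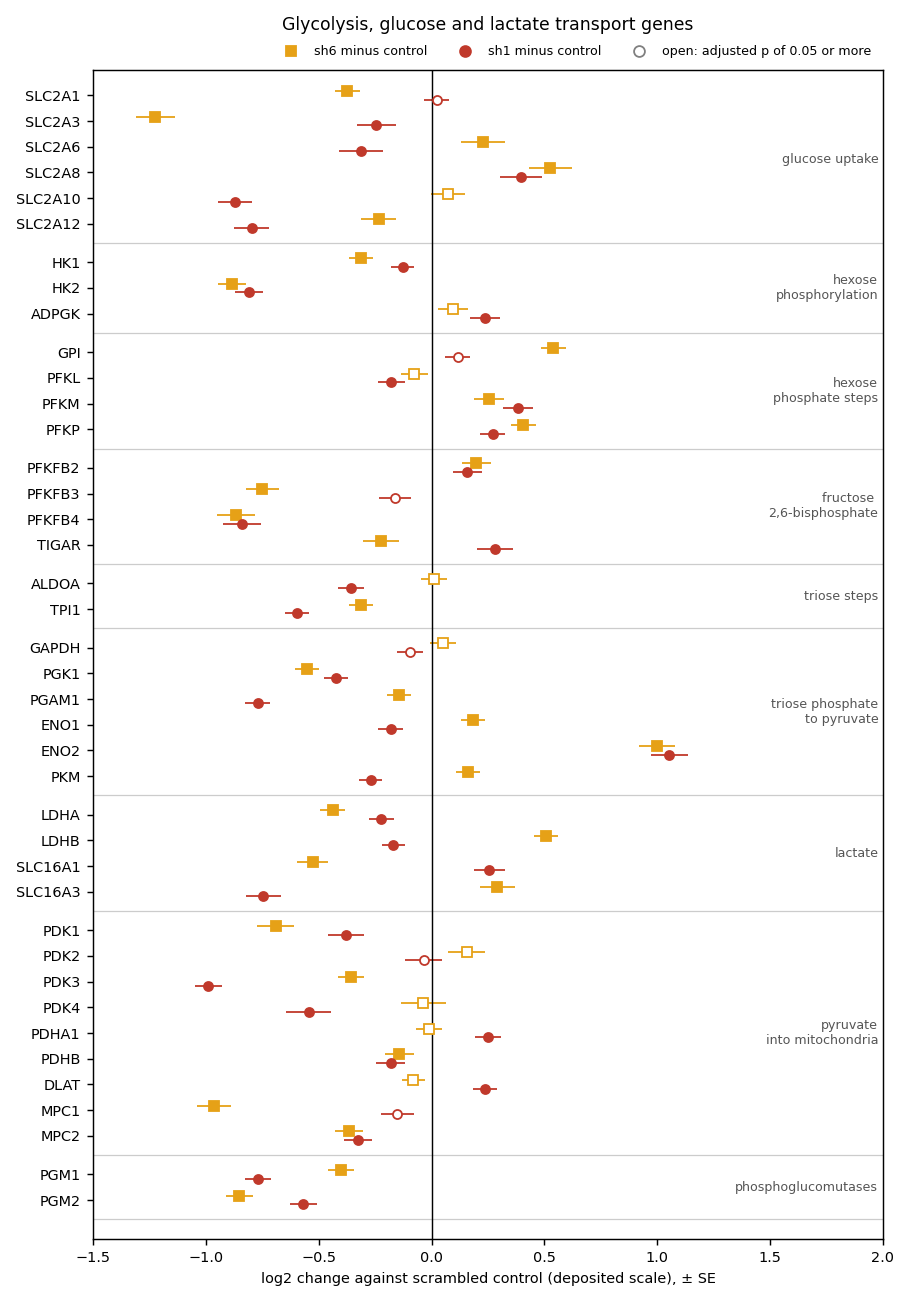
Log2 change of each tested member against the scrambled control (x axis, deposited log2-like scale, error bars SE of the model, 3 libraries a group), in pathway order from glucose uptake at the top to the phosphoglucomutases at the bottom. Squares are sh6, circles are sh1, and open symbols did not pass the test. HK2, PFKFB4 and ENO2 lie at nearly the same place with both hairpins, while SLC16A1 and SLC16A3 lie on opposite sides of 0.

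Most changes were small. At least 1.5-fold on the deposited scale, HK2 and PFKFB4 fell with both hairpins, as 3.87% of all genes tested did, and ENO2 rose with both, as 2.74% did. At the same size 7 members fell and 1 rose with sh6, where 10.3% of all genes fell and 8.13% rose, and 9 fell and 1 rose with sh1, where 7.16% of all genes fell and 5.3% rose.

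The stretches before the start sites of HK2, PGK1 and LDHA (lower with both hairpins) and of ENO2 (higher with both) are shown as examples. The factors known to act on glycolytic promoters read short motifs in such stretches. Each is the 250 bases before a start annotated in RefSeq (GRCh38.p14, plus strand, 5′ to 3′), the first listed where a gene has several, and capitals mark ACGTG or GCGTG on either strand, the core letters of the hypoxia response element.
HK2, chr2:74833877-74834126: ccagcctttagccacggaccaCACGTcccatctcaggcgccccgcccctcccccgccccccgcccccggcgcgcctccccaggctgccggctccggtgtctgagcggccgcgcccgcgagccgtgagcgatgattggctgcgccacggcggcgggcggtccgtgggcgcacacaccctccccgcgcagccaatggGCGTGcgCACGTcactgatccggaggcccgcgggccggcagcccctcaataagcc
PGK1, chrX:78103998-78104247: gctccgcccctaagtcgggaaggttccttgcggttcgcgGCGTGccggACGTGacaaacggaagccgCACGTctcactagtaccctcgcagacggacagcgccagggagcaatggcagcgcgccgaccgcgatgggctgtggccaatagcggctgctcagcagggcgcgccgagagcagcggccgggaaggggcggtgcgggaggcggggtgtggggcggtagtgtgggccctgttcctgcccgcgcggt
LDHA, chr11:18394313-18394562: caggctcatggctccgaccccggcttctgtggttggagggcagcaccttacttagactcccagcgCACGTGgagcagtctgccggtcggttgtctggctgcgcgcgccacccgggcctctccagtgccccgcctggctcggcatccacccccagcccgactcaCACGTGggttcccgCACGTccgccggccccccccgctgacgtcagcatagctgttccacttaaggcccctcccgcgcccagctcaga
ENO2, chr12:6914330-6914579: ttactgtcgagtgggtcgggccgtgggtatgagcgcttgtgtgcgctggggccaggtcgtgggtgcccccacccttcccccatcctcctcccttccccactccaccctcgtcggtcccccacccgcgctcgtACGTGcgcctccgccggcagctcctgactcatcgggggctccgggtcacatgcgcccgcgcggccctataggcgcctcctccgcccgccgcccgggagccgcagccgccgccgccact
These stretches hold 3 matches before HK2, 3 before PGK1, 5 before LDHA and 1 before ENO2, and 2 of the LDHA matches overlap on each of 2 copies of the E-box CACGTG. Among the other members lower with both, PFKFB4 held 1 match before its first listed start, PDK3 2, PGM2 4 and PDHB 6. SLC2A12, HK1, TPI1, PGAM1, PDK1, MPC2 and PGM1 held 0 there. These counts depend on the start taken. A further listed start held 2 matches before it for TPI1, 2 for PDK1, 3 for PGM1 and 1 for HK1. HK2 held 6 before its second listed start. In PGM2 and PDHB, and in HK2 at that second start, some matches overlap on copies of CACGTG. Of the 40 members with a window in the RefSeq table (250 bases before to 50 after the start), 36 held ACGTG or GCGTG on either strand in at least 1 window, or 90.0%, where 70.1% of the 10061 tested genes with a window did. Per window the shares lay closer, at 64.4% of 73 member windows, 60.4% of 14661 windows of tested genes and 48.4% of all 35116 windows. Of the 14 members with a window that fell with both hairpins, 12 held the motif, in 57.1% of their 28 windows, and of the 4 that rose with both, 3 did, in 38.5% of 13 windows. CACGTG stood in 22.5% of the members and in 12.4% of the tested genes with a window. In both shares per gene the 40 members include HKDC1, ALDOC and ENO3, which were not tested. Nor were these shares matched for windows per gene, of which the 40 members have 73 and the 10061 tested genes 14661. SLC2A3, PFKFB2 and SLC16A1 have no entry in that table.

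Glucose carriers did not move together. SLC2A1 (GLUT1), the main glucose carrier of cultured cells, had normalised counts of 2742, 2675 and 2468 with sh6 and 3374, 3460.4 and 3591 with sh1, against 3490.4, 3546 and 3234 in the controls. It fell with sh6 (log2 change -0.37, SE 0.0550, adjusted p = 5.8e-07) and did not pass the test with sh1 (log2 change 0.02, SE 0.0550, adjusted p = 0.751). There the libraries overlap the controls. SLC2A3 (GLUT3), a high-affinity carrier, had normalised counts of 73.3, 77.6 and 69.2 with sh6 and 202, 172 and 215 with sh1, against 245, 257 and 226 in the controls. It had the largest log2 fall with sh6 of any member, 3.31-fold (log2 change -1.23, SE 0.0867, adjusted p = 1.3e-13). The smaller fall with sh1 (log2 change -0.24, SE 0.0867, adjusted p = 0.016) was not called without control replicate 2 (adjusted p = 0.0649) or sh1 replicate 2 (0.124). SLC2A10, a further carrier of the family, had normalised counts of 393, 349 and 371 with sh6 and 164, 162 and 169 with sh1, against 357, 366 and 326 in the controls. It fell 2.12-fold with sh1 (log2 change -0.87, SE 0.0761, adjusted p = 2.7e-11) and was not called with sh6 (log2 change 0.07, SE 0.0761, adjusted p = 0.403). SLC2A12, another such carrier, fell with both, 1.21-fold with sh6 (log2 change -0.23, SE 0.0773, adjusted p = 0.00829) and 1.96-fold with sh1 (log2 change -0.80, SE 0.0773, adjusted p = 2.7e-10). SLC2A8, a carrier of internal membranes, rose with both, to 124 ± 8.24 with sh6 and 109 ± 12.5 with sh1, against 70.6 ± 10.9 in the controls (mean ± SD, n = 3 each, adjusted p = 1.2e-05 with sh6 and 0.00059 with sh1 in limma's test). SLC2A6, also a carrier of internal membranes, at counts of 23.8 to 60.03 throughout, fell with sh1 (log2 change -0.31, SE 0.0971, adjusted p = 0.00674) and rose with sh6 (log2 change 0.23, SE 0.0971, adjusted p = 0.0398). Its call with sh6 was lost without sh6 replicate 1 (adjusted p = 0.108), sh6 replicate 3 (0.0888), control replicate 1 (0.0630) or control replicate 2 (0.130).

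HK2, the inducible hexokinase, fell at least 1.5-fold on the deposited scale with both hairpins, and HK1 by less than that. HK2, whose promoter stretch at the first listed start holds 3 motif matches, had normalised counts of 825, 849 and 859 with sh6 and 891, 833 and 958 with sh1, against 1656, 1671 and 1520.0 in the controls. No hairpin library came near the controls, and the falls were 1.91-fold with sh6 (log2 change -0.89, SE 0.0617, adjusted p = 9.1e-14) and 1.81-fold with sh1 (log2 change -0.81, SE 0.0617, adjusted p = 1.2e-12). HK1, the constitutive isoform, had normalised counts of 3945, 3605 and 3800.3 with sh6 and 4285, 4119.7 and 4507 with sh1, against 4677, 4717 and 4736 in the controls. Its fall was 1.25-fold with sh6 (log2 change -0.31, SE 0.0524, adjusted p = 4.8e-06) and 1.09-fold with sh1 (log2 change -0.13, SE 0.0524, adjusted p = 0.0347). The HK1 call with sh1 was lost without control replicate 1 (adjusted p = 0.0699), control replicate 2 (0.0593), sh1 replicate 1 (0.0874) or sh1 replicate 2 (0.160). Per kilobase of its principal GENCODE transcript (3605 bases for HK1, 5772 for HK2), HK1 stood at a mean normalised count of 1049.5 with sh6, 1194 with sh1 and 1306 in the controls, and HK2 at 146, 155 and 279.9. ADPGK, an ADP-dependent glucokinase of the endoplasmic reticulum, rose with sh1 (log2 change 0.24, SE 0.0654, adjusted p = 0.00257) and did not pass with sh6 (log2 change 0.09, SE 0.0654, adjusted p = 0.207). HKDC1, a relative of the hexokinases, lay at counts of 0 to 5.28.

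**Figure D2:**
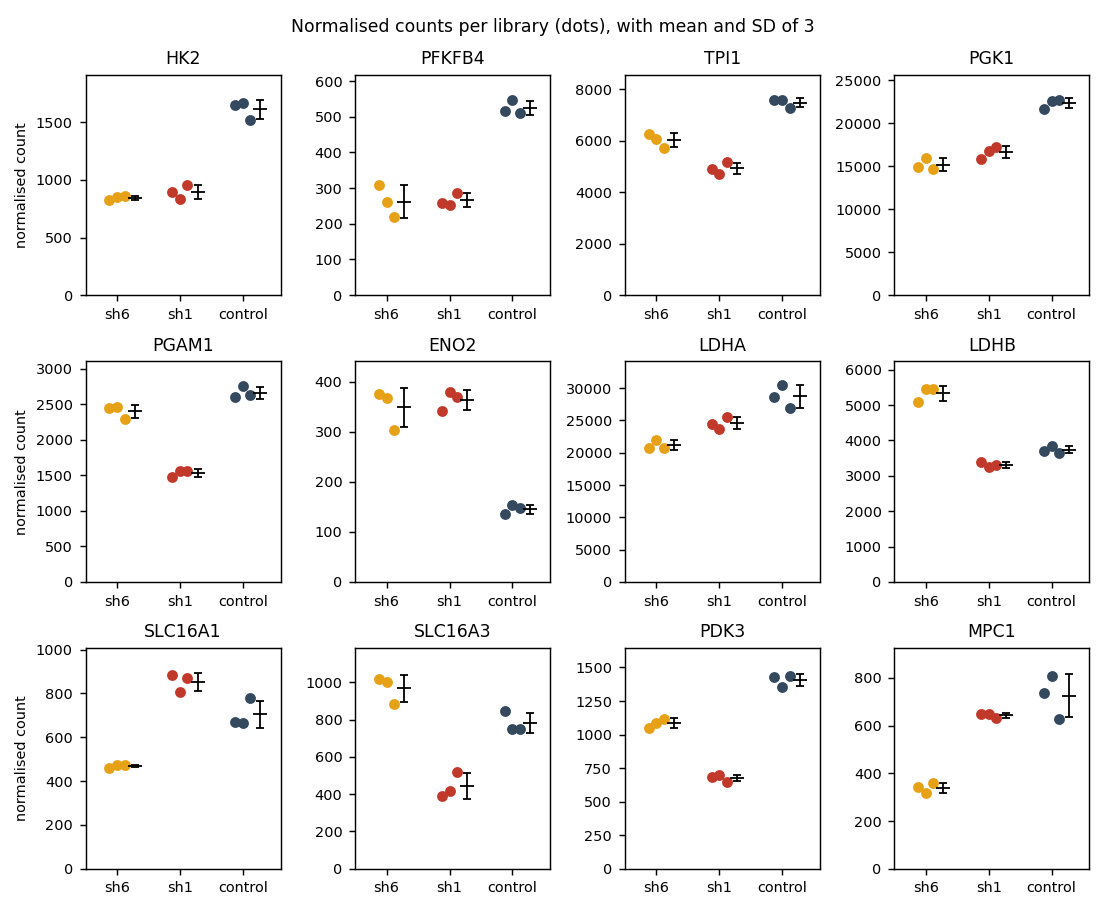
Normalised counts of 12 members (y axis, linear from 0) in each library, with the 3 libraries of sh6, of sh1 and of the control side by side and the mean and SD of each group as a black bar. HK2, PFKFB4, TPI1 and PGK1 are lower with both hairpins and ENO2 is higher with both, while LDHB, SLC16A1 and SLC16A3 lie on opposite sides of the controls with sh6 and sh1.

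At the phosphofructokinase step, the muscle-type and platelet-type subunits rose with both hairpins while the liver-type subunit did not. PFKM had normalised counts of 534, 495 and 517 with sh6 and 573, 576 and 558 with sh1, against 409, 426 and 430.3 in the controls. It rose 1.22-fold with sh6 (log2 change 0.26, SE 0.0663, adjusted p = 0.00117) and 1.35-fold with sh1 (log2 change 0.38, SE 0.0663, adjusted p = 1e-05). PFKP had normalised counts of 4276, 4342 and 4005 with sh6 and 3751, 3566 and 4167 with sh1, against 3124, 3196 and 3153 in the controls. This is a rise of 1.33-fold with sh6 (log2 change 0.41, SE 0.0561, adjusted p = 1.9e-07) and 1.21-fold with sh1 (log2 change 0.27, SE 0.0561, adjusted p = 0.00013). Every hairpin library lay above every control. PFKL, the liver-type subunit, overlapped the controls with both hairpins. Its fall with sh1 (log2 change -0.18, SE 0.0602, adjusted p = 0.0121) was lost without control replicate 1 (adjusted p = 0.0562), control replicate 3 (0.0511), sh1 replicate 1 (0.0513) or sh1 replicate 2 (0.0813). GPI, which turns glucose 6-phosphate into fructose 6-phosphate, had normalised counts of 8536, 7983 and 7598 with sh6 and 5738, 5891 and 6293 with sh1, against 5607, 5256 and 5671 in the controls. It rose 1.46-fold with sh6 (log2 change 0.54, SE 0.0546, adjusted p = 4.4e-10). With sh1 (log2 change 0.12, SE 0.0546, adjusted p = 0.0709) it was called only in fits without control replicate 3 (adjusted p = 0.0368) or sh6 replicate 1 (0.0474), among the fits that leave out 1 library.

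The enzymes that set fructose 2,6-bisphosphate, the activator of phosphofructokinase, went different ways. PFKFB4 had normalised counts of 309, 260.1 and 218 with sh6 and 258, 254 and 288 with sh1, against 516, 546 and 512 in the controls. It was lower in all 6 hairpin libraries, 2.00-fold with sh6 (log2 change -0.87, SE 0.0846, adjusted p = 1.9e-10) and 1.97-fold with sh1 (log2 change -0.84, SE 0.0846, adjusted p = 5.7e-10). PFKFB3, whose enzyme strongly favours making fructose 2,6-bisphosphate, had normalised counts of 500.1, 537 and 479.9 with sh6 and 755, 714 and 912 with sh1, against 913, 869.9 and 893 in the controls. It fell 1.76-fold with sh6 (log2 change -0.75, SE 0.0724, adjusted p = 1.5e-10), while sh1 replicate 3 lay within the control range and the change with sh1 was not called (log2 change -0.16, SE 0.0724, adjusted p = 0.0526). Without sh1 replicate 3 it was called (log2 change -0.26, adjusted p = 0.00419), as it was without sh6 replicate 1 (adjusted p = 0.0486). PFKFB2 rose slightly with both, by 0.20 with sh6 and 0.16 with sh1 on the log2 scale. The PFKFB2 call with sh1 was lost without control replicate 1 (adjusted p = 0.0697), control replicate 2 (0.0953), sh1 replicate 1 (0.0625) or sh1 replicate 3 (0.182). TIGAR, a phosphatase induced by p53 that lowers fructose 2,6-bisphosphate, had normalised counts of 176, 169.8 and 178 with sh6 and 258, 257 and 299.9 with sh1, against 226, 215 and 199 in the controls. It fell with sh6 (log2 change -0.22, SE 0.0808, adjusted p = 0.0155) and rose with sh1 (log2 change 0.28, SE 0.0808, adjusted p = 0.00374). The TIGAR call with sh6 was lost without control replicate 1 (adjusted p = 0.0708).

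Of the enzymes between fructose bisphosphate and 3-phosphoglycerate, TPI1 and PGK1 fell with both hairpins and GAPDH passed the test with neither. TPI1, triosephosphate isomerase, had normalised counts of 6245, 6078 and 5714 with sh6 and 4888, 4718 and 5157 with sh1, against 7566, 7583 and 7284 in the controls. It fell 1.24-fold with sh6 (log2 change -0.31, SE 0.0523, adjusted p = 4.7e-06) and 1.52-fold with sh1 (log2 change -0.60, SE 0.0523, adjusted p = 2.8e-11). PGK1, phosphoglycerate kinase, had normalised counts of 14926, 15984 and 14645 with sh6 and 15834, 16735 and 17214 with sh1, against 21639, 22549 and 22755 in the controls. It fell 1.47-fold with sh6 (log2 change -0.55, SE 0.0531, adjusted p = 1.3e-10) and 1.34-fold with sh1 (log2 change -0.43, SE 0.0531, adjusted p = 4.1e-08), with no overlap with the controls. GAPDH, with the highest counts of the set, had normalised counts of 93277, 88542 and 87713 with sh6 and 79612, 79727 and 83724 with sh1, against 86329.7, 82964 and 90786 in the controls. Its log2 change was 0.05 with sh6 (adjusted p = 0.438) and -0.10 with sh1 (adjusted p = 0.153), and both changed sign under quantile normalisation, to -0.03 and 0.29. ALDOA, the main aldolase, fell with sh1 (log2 change -0.36, SE 0.0577, adjusted p = 3.5e-06) and did not pass with sh6 (log2 change 0.01, SE 0.0577, adjusted p = 0.859). That fall with sh1 was not called under quantile normalisation (log2 change -0.02, adjusted p = 0.811), where ALDOA was called higher with sh6 (log2 change 0.14, adjusted p = 0.032). ALDOC, the brain aldolase, lay at counts of 0 to 8.94. GENCODE lists 62 pseudogenes named after GAPDH and 4 after TPI1, so reads of these genes may be shared with copies.

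In the last steps to pyruvate, ENO2 rose with both hairpins. ENO1 and PKM rose with sh6 and fell with sh1, although the changes with sh1 turned to 0.17 and 0.02 under quantile normalisation. ENO2, the neuronal enolase, with 1 motif match before its start, had normalised counts of 376, 366 and 304 with sh6 and 342, 379.8 and 369 with sh1, against 136, 153 and 148 in the controls. Every hairpin library was at least 2 times the highest control apart from sh6 replicate 3. The rises were 2.40-fold with sh6 (log2 change 1.00, SE 0.0815, adjusted p = 3.7e-12) and 2.50-fold with sh1 (log2 change 1.05, SE 0.0815, adjusted p = 1.7e-12). ENO1, the main enolase, had normalised counts of 35203, 33808 and 32329 with sh6 and 25087, 26173 and 27369.9 with sh1, against 29078, 29206 and 30875 in the controls. It rose with sh6 (log2 change 0.18, SE 0.0546, adjusted p = 0.00383) and fell with sh1 (log2 change -0.18, SE 0.0546, adjusted p = 0.00527). Under quantile normalisation ENO1 was called higher with sh1 (adjusted p = 0.00742). PKM, pyruvate kinase, had normalised counts of 33614, 32336 and 30579.9 with sh6 and 23867, 23641 and 23930.5 with sh1, against 28708, 28414 and 29129 in the controls. It rose with sh6 (log2 change 0.16, SE 0.0525, adjusted p = 0.00779) and fell with sh1 (log2 change -0.27, SE 0.0525, adjusted p = 5.1e-05). Under quantile normalisation PKM was not called with sh1 (adjusted p = 0.77). The table has 1 row per gene, so the PKM splice forms are not separated. PGAM1, phosphoglycerate mutase, had normalised counts of 2443, 2459 and 2294 with sh6 and 1469.9, 1559.7 and 1561 with sh1, against 2594, 2755 and 2621 in the controls. It fell 1.74-fold with sh1 (log2 change -0.77, SE 0.0543, adjusted p = 1.8e-13) and 1.11-fold with sh6 (log2 change -0.14, SE 0.0543, adjusted p = 0.0201). The PGAM1 call with sh6 was lost without control replicate 2 (adjusted p = 0.0821) or sh6 replicate 3 (0.1). GENCODE lists 13 pseudogenes named after PGAM1. ENO3, the muscle enolase, was too low to test, with normalised counts of 19.6, 17.2 and 13.5 with sh6 and 19.2, 27.0 and 25.9 with sh1, against 7.52, 10.1 and 4.48 in the controls. The authors' deposited table gives it a log2 fold change of 1.48 (adjusted p = 0.00282).

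LDHA fell with both hairpins (with sh1 not under quantile normalisation), whereas LDHB and both lactate carriers were called in opposite directions with sh6 and sh1. LDHA, the subunit that favours making lactate, with 5 partly overlapping motif matches before its first listed start, had normalised counts of 20783, 22021 and 20688 with sh6 and 24419.8, 23718 and 25587 with sh1, against 28666, 30528 and 26949 in the controls. It fell 1.36-fold with sh6 (log2 change -0.44, SE 0.0555, adjusted p = 4e-08) and 1.17-fold with sh1 (log2 change -0.22, SE 0.0555, adjusted p = 0.00096). The LDHA change with sh1 turned to 0.10 under quantile normalisation (adjusted p = 0.0918). LDHB, the subunit that favours using lactate, had normalised counts of 5076, 5451 and 5468 with sh6 and 3393, 3238 and 3299.9 with sh1, against 3693, 3845 and 3657 in the controls. It rose 1.43-fold with sh6 (log2 change 0.51, SE 0.0516, adjusted p = 4.7e-10) and fell 1.13-fold with sh1 (log2 change -0.17, SE 0.0516, adjusted p = 0.00559). The LDHB call with sh1 was lost under quantile normalisation (log2 change -0.08, adjusted p = 0.166). SLC16A1 (MCT1), a lactate carrier that works in both directions, had normalised counts of 461, 472 and 474 with sh6 and 883, 807 and 868 with sh1, against 672, 665 and 777 in the controls. The sh6 libraries lay below and the sh1 libraries above all controls. SLC16A1 was 1.5-fold lower with sh6 (log2 change -0.53, SE 0.0675, adjusted p = 4.7e-08) and 1.21-fold higher with sh1 (log2 change 0.26, SE 0.0675, adjusted p = 0.00165). SLC16A3 (MCT4), the lactate exporter of strongly glycolytic cells, had normalised counts of 1019, 1002 and 886 with sh6 and 391, 416 and 521 with sh1, against 844, 750.3 and 747 in the controls. It moved the other way, 1.24-fold higher with sh6 (log2 change 0.29, SE 0.0784, adjusted p = 0.00165) and 1.76-fold lower with sh1 (log2 change -0.75, SE 0.0784, adjusted p = 1.4e-09).

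The kinases that switch off pyruvate dehydrogenase fell or stayed without a call in the main test. PDK1 had normalised counts of 557, 519.9 and 506 with sh6 and 631, 634 and 750.4 with sh1, against 896, 1033 and 760.1 in the controls. It fell 1.70-fold with sh6 (log2 change -0.69, SE 0.0807, adjusted p = 7.8e-09) and 1.33-fold with sh1 (log2 change -0.38, SE 0.0807, adjusted p = 0.00017). PDK3 had normalised counts of 1047, 1087 and 1119.5 with sh6 and 684, 698 and 650.2 with sh1, against 1429.9, 1354 and 1438 in the controls. PDK3 fell 1.3-fold with sh6 (log2 change -0.36, SE 0.0591, adjusted p = 3.8e-06) and 2.08-fold with sh1 (log2 change -0.99, SE 0.0591, adjusted p = 3.7e-15). PDK4, the kinase induced by fasting, lay at 41.7 ± 2.74 with sh6 and 18.1 ± 4.15 with sh1, against 43.9 ± 4.36 in the controls (mean ± SD, n = 3 each). It fell with sh1 (log2 change -0.55, SE 0.0997, adjusted p = 2.4e-05) and did not pass with sh6 (log2 change -0.04, SE 0.0997, adjusted p = 0.758). The difference of PDK4 between the hairpins was itself called (log2 difference 0.51, SE 0.0997, adjusted p = 6e-05). PDK2 passed with neither (adjusted p = 0.0921 with sh6 and 0.722 with sh1), although with library weights it was called higher with sh6 (log2 change 0.17, adjusted p = 0.0334).

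The pyruvate carrier and the complex itself changed less evenly. MPC1, which pairs with MPC2 in the mitochondrial pyruvate carrier, had normalised counts of 345, 317 and 359 with sh6 and 650.2, 649 and 631 with sh1, against 737, 809 and 629.5 in the controls. It fell 2.13-fold with sh6 (log2 change -0.97, SE 0.0747, adjusted p = 1.1e-12). With sh1 the change was not called (log2 change -0.15, SE 0.0747, adjusted p = 0.0806). It was called without control replicate 3, the lowest control (log2 change -0.24, adjusted p = 0.00502), and with library weights (log2 change -0.175, adjusted p = 0.00958). MPC2 had normalised counts of 1115, 1022 and 1046 with sh6 and 1072, 1134 and 1068 with sh1, against 1321, 1504 and 1336 in the controls. Its log2 change was -0.37 with sh6 and -0.33 with sh1, with no overlap with the controls. PDHA1, which carries the sites the kinases act on, and DLAT, the acetyl-transferring core, rose with sh1. PDHA1 rose with sh1 by a little (log2 change 0.25, SE 0.0574, adjusted p = 0.00044), as did DLAT (log2 change 0.24, SE 0.0524, adjusted p = 0.00028). With sh6 PDHA1 (adjusted p = 0.859) and DLAT (adjusted p = 0.17) did not pass, although with library weights DLAT was called lower with sh6 (log2 change -0.097, adjusted p = 0.0491). PDHB, the partner of PDHA1, had log2 changes of -0.14 with sh6, where it overlapped the controls, and -0.18 with sh1. The PDHB call with sh6 (adjusted p = 0.0452) was lost in 6 of the 9 fits that leave out 1 library, those without sh6 replicate 1 (adjusted p = 0.150), sh6 replicate 2 (0.106), sh1 replicate 1 (0.0540), sh1 replicate 3 (0.0569), control replicate 1 (0.0970) or control replicate 2 (0.196). Its call with sh1 (adjusted p = 0.0137) was lost without sh1 replicate 1 (0.0824) or control replicate 2 (0.0798).

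Both phosphoglucomutases fell with both hairpins. PGM1, which links glucose 6-phosphate to glycogen and nucleotide sugars, had normalised counts of 1789, 1792 and 1663 with sh6 and 1327, 1299 and 1397 with sh1, against 2397, 2397 and 2199 in the controls. It fell 1.33-fold with sh6 (log2 change -0.40, SE 0.0568, adjusted p = 2.8e-07) and 1.74-fold with sh1 (log2 change -0.77, SE 0.0568, adjusted p = 5.8e-13). PGM2, which acts mainly on pentose phosphates, had normalised counts of 741, 811 and 746 with sh6 and 914, 938 and 982 with sh1, against 1456, 1453 and 1391 in the controls. It fell 1.87-fold with sh6 (log2 change -0.85, SE 0.0597, adjusted p = 1e-13) and 1.52-fold with sh1 (log2 change -0.57, SE 0.0597, adjusted p = 1.3e-09). No hairpin library overlapped the controls for either gene.

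A ratio between the counts of 2 transcripts in the same library carries no factor that is common to that library. The values below are differences on the deposited log2-like scale, where this holds only nearly, and less so for low genes. The log2 ratio of HK2 to HK1 was -2.08 ± 0.0840 with sh6 and -2.19 ± 0.0310 with sh1, against -1.51 ± 0.0790 in the controls (mean ± SD of 3 libraries on the deposited scale, as for each ratio here). PFKP to PFKL was 0.59 ± 0.0550 with sh6 and 0.56 ± 0.0260 with sh1, against 0.11 ± 0.117 in the controls, and for both ratios no hairpin library overlapped a control. The ENO2 to ENO1 ratio was -6.37 ± 0.0880 with sh6 and -5.95 ± 0.0510 with sh1, against -7.18 ± 0.0680 in the controls. Its change from the controls was 0.815 with sh6 and 1.235 with sh1. On the scale of log2(normalised count + 1) these changes were 1.067 and 1.498. For LDHB to LDHA the value was -1.98 ± 0.0600 with sh6 and -2.87 ± 0.0560 with sh1, against -2.92 ± 0.0550 in the controls. LDHB made up 20.1% of the summed LDHA and LDHB counts with sh6 and 11.9% with sh1, against 11.5% in the controls. The ratio of SLC16A3 to SLC16A1 lay at 0.95 ± 0.117 with sh6, above the controls, and at -0.87 ± 0.194 with sh1, below them, against 0.14 ± 0.179 in the controls. MPC2 to MPC1 was 1.48 ± 0.0740 with sh6 and 0.71 ± 0.0390 with sh1, against 0.88 ± 0.117 in the controls. Between sh6 and sh1 this ratio differed by 0.775, and by 0.878 on the scale of log2(normalised count + 1). These ratios are described without a test.

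**Figure D3:**
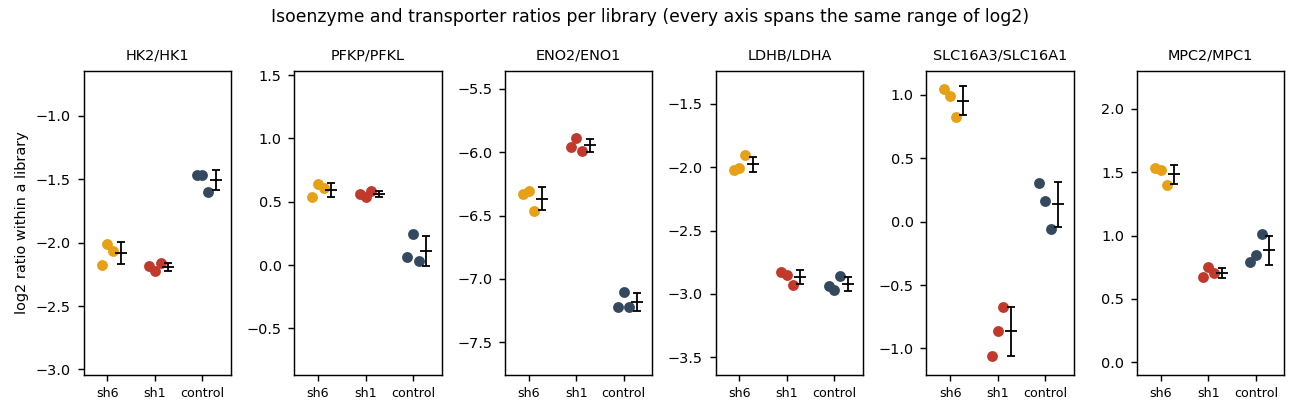
Log2 ratio of 2 members within each library (y axis, deposited log2-like scale, every panel spanning the same range), for the 3 libraries of sh6, of sh1 and of the control, with the mean and SD of each group as a black bar. HK2/HK1 and PFKP/PFKL differ from the controls alike with both hairpins, whereas SLC16A3/SLC16A1 lies above the controls with sh6 and below them with sh1.

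The direct comparison of sh6 with sh1 uses no control library for its differences. Of the 40 members, 17 were higher with sh6 than with sh1, where 30.8% of all genes tested were, and 13 were lower, where 28.9% were. At least 1.5-fold, 5 were higher and 4 lower, where 5.18% and 6.37% of all genes were. SLC16A3 was 2.19-fold higher with sh6 than with sh1 (log2 difference 1.04, SE 0.0784, adjusted p = 1.1e-12), SLC2A10 2.25-fold higher (log2 difference 0.94, SE 0.0761, adjusted p = 4.9e-12) and LDHB 1.61-fold higher (log2 difference 0.68, SE 0.0516, adjusted p = 1.4e-12). SLC2A3 was 2.68-fold lower with sh6 than with sh1 (log2 difference -0.98, SE 0.0867, adjusted p = 3.9e-11), MPC1 1.89-fold lower (log2 difference -0.81, SE 0.0747, adjusted p = 9e-11), SLC16A1 1.82-fold lower (log2 difference -0.78, SE 0.0675, adjusted p = 2.2e-11) and PFKFB3 1.57-fold lower (log2 difference -0.59, SE 0.0724, adjusted p = 3.5e-08). HK2, PFKFB4 and ENO2 did not pass in this comparison, with log2 differences of -0.07 (SE 0.0617), -0.03 (SE 0.0846) and -0.06 (SE 0.0815). The weakest calls were PFKP, GAPDH, PGK1 and PDK2, with adjusted p of 0.0368, 0.0282, 0.0391 and 0.0436. PFKP was lost without sh6 replicate 1 (adjusted p = 0.0794), sh6 replicate 2 (0.138), sh1 replicate 1 (0.117) or sh1 replicate 2 (0.234), and GAPDH without sh6 replicate 1 (0.104), sh1 replicate 1 (0.0966) or sh1 replicate 2 (0.0793). PGK1 was lost without sh6 replicate 1 (0.0852), sh6 replicate 3 (0.151), sh1 replicate 2 (0.0949), sh1 replicate 3 (0.178) or control replicate 1 (0.0510), and PDK2 without sh6 replicate 1 (0.121), sh6 replicate 2 (0.121), sh1 replicate 1 (0.149) or sh1 replicate 3 (0.156). ADPGK was called only without control replicate 3 (0.0483), among these fits. With equal totals HK2 (-0.17, 0.0178), PFKM (-0.22, 0.00505) and ADPGK (-0.23, 0.00269) were called lower with sh6 than with sh1. Under quantile normalisation the differences of PFKP and GAPDH turned to -0.01 (adjusted p = 0.921) and -0.31 (adjusted p = 1.2e-05). That of ENO1, 0.37 in the main test (adjusted p = 1.1e-06), was not called there (0.11, adjusted p = 0.0663).

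The summed normalised count of all 43 members was 256954 to 275100 with sh6 and 232544 to 244844 with sh1, against 270638 to 275215 in the controls. That is 1.49% to 1.59% of the library with sh6 and 1.44% to 1.52% with sh1, against 1.56% to 1.58% in the controls. The sh1 libraries lay below all controls on both measures, while the sh6 libraries overlapped them. GAPDH, ENO1, PKM, LDHA, ALDOA and PGK1 had the highest counts in that sum.

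Genes of neighbouring routes were counted in the same fit, in which 19.4% of all genes tested fell and 18.9% rose with both hairpins. Of 20 glycogen metabolism genes tested, 8 fell with both hairpins and 0 rose. The median log2 change of the list was -0.28 with sh6 and -0.31 with sh1. PPP1R3C, which targets a phosphatase to glycogen, had normalised counts of 352, 341 and 307 with sh6 and 319, 307 and 362 with sh1, against 913, 979 and 779 in the controls. It was 2.67-fold lower with sh6 (log2 change -1.27, SE 0.0790, adjusted p = 6.5e-15) and 2.70-fold lower with sh1 (log2 change -1.28, SE 0.0790, adjusted p = 8e-15). PPP1R3B, another glycogen-targeting subunit, had normalised counts of 226, 216 and 213 with sh6 and 341, 328 and 355 with sh1, against 758, 792 and 655 in the controls. This is a fall of 3.37-fold with sh6 (log2 change -1.51, SE 0.0748, adjusted p = 2.3e-17) and 2.15-fold with sh1 (log2 change -0.98, SE 0.0748, adjusted p = 1.2e-12). GBE1, the glycogen branching enzyme, had normalised counts of 347, 358 and 348 with sh6 and 413, 452 and 513 with sh1, against 739.8, 756 and 739 in the controls. The fall was 2.12-fold with sh6 (log2 change -0.97, SE 0.0714, adjusted p = 3.5e-13) and 1.62-fold with sh1 (log2 change -0.64, SE 0.0714, adjusted p = 5.6e-09). For these genes no hairpin library overlapped a control. Of 11 pentose phosphate genes, 4 fell with both and 2 rose. Counted per hairpin, these included, 4 fell and 3 rose with sh6, where 33.6% of all genes tested fell and 34.2% rose. With sh1 8 fell and 2 rose, where 30.0% of all genes fell and 29.0% rose. Of the 20 glycogen genes, counted in the same way, 11 fell and 3 rose with sh6, and 12 fell and 3 rose with sh1. Of 7 genes of the malate-aspartate and related shuttles, 3 rose with both and 1 fell. Of 8 tested isoforms of the same steps that are not members, 2 fell and 2 rose with both, of 6 further pyruvate dehydrogenase genes 1 fell and 0 rose, and of 7 genes of the glycerol 3-phosphate and serine branches 2 fell and 1 rose. Of 17 regulators of glycolytic genes and glucose uptake, 4 fell and 3 rose with both. EGLN3, a prolyl hydroxylase of the HIF subunits, had normalised counts of 1957, 1979 and 1788 with sh6 and 2024, 1941 and 2277 with sh1, against 3383, 3333 and 2916 in the controls. It was 1.68-fold lower with sh6 (log2 change -0.73, SE 0.0634, adjusted p = 1.5e-11) and 1.54-fold lower with sh1 (log2 change -0.61, SE 0.0634, adjusted p = 1.1e-09).

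**Figure D4:**
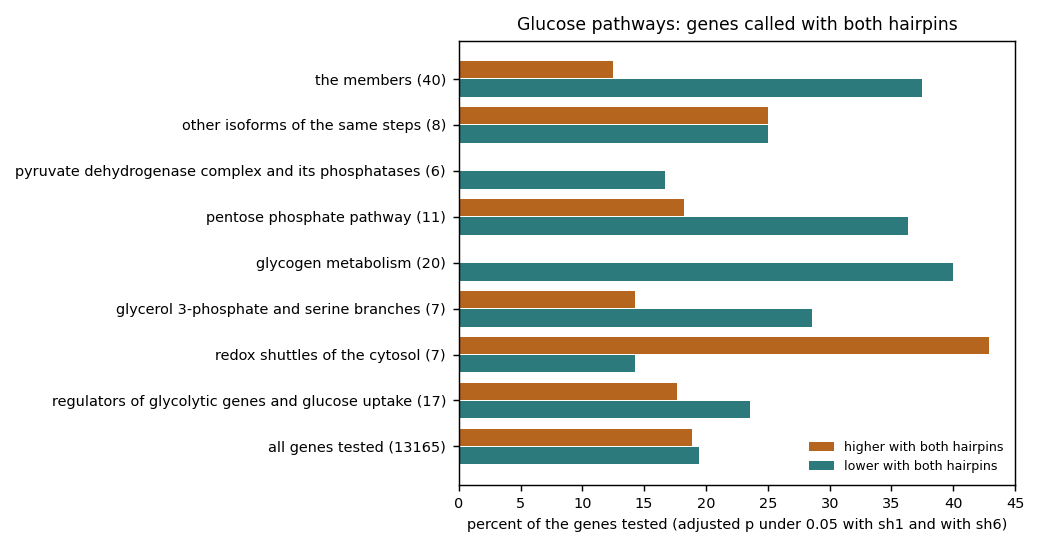
Percent of the tested genes of each list (x axis) that were called higher or lower with both hairpins in the same direction, with the number tested in brackets and all genes tested at the bottom. Of the members 37.5% are lower with both, and of the glycogen genes 8 of 20, where of all genes tested 19.4% are lower and 18.9% are higher.

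The authors' deposited table also holds 1 log2 fold change and 1 adjusted p per gene, with no statement of the libraries compared. Over 7019 well-expressed genes its log2 fold change differed by a median of 0.014 from the mean of both hairpins minus the control on the deposited scale, against 0.11 from sh6 alone and 0.12 from sh1 alone. By the authors' deposited table, 12 of the 43 members are lower and 6 higher at an adjusted p under 0.05, where 33.1% of 16686 genes with an adjusted p are in either direction. The share of those genes in each direction is not given here, so these counts cannot show whether falls exceed it. The authors' deposited table gives SLC16A3 a log2 fold change of -0.14 (adjusted p = 0.777) and LDHB 0.21 (adjusted p = 0.470), both called in opposite directions with the 2 hairpins here.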

How the data were processed

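RNA of 3 groups of 3 MDA-MB-468 libraries (the BBOX1 hairpins sh6 and sh1 and the scrambled control, by sample title) was sequenced in paired reads of 100 bases. Per the submitters' processing notes, the authors worked with the build hg19 and with DESeq2, Salmon, STAR and cutadapt. Versions, settings and the treatment of strand are not given in the sources used here, and overlapping antisense genes cannot be told apart. The deposited table holds variance-stabilised log2-like values made by the authors, with a floor of 5.02. Its name calls them batch-corrected, and no batch or method is given in the sources used here. A total of 8075 genes lie at the common floor in every library, and the values were used as deposited, so counts and reads recovered from them hold only as far as such a step left the scale unchanged. Beside them stand a log2 fold change and an adjusted p-value from the authors.

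The transformation was inverted to normalised counts. The worth of 1 read came from the steps of low values, of which 76.6% to 80.4% per library were whole within 0.05 between 0.5 and 20.5 reads, so no count model was used. Genes with a mean at least 1 above the floor (a normalised count of 16.2) were kept, 13165 of 27315. The main test was limma 3.58.1 (R 4.3.3), a two-sided moderated test with a mean trend in the variance prior, fitted to the deposited values of all 9 libraries in 1 model of 3 groups, with Benjamini-Hochberg adjustment over all genes kept. Every adjusted p in the text comes from this test unless the authors' table is named. Scripts ran in Python 3.11.15 with pandas 2.3.3, and the fit was tested on simulated data.

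The members, lists, pairs of genes and tests were chosen with earlier results of these data known. The text accounts for all 43 members and names, of each further list, up to 4 genes that passed with both hairpins in 1 direction at 1.5-fold or more, largest first. Alternatives covered the low-value filter, the variance prior, library weights, centring, the scale, the threshold, a replicate block and leaving out each library. Scaling to equal totals was added after seeing the data. Promoter sequences are from RefSeq (GRCh38.p14) and transcript lengths from the longest principal transcript of GENCODE. The deposited table has 27 symbols turned into dates, none of them a member.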

Additional observations from a re-analysis of the deposited data

Results flagged for a closer look

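Members called in opposite directions with the 2 hairpins are singled out here, with their difference between the hairpins. For such members that difference is large by construction, so its passing limma's test adds no support. Of the lactate carriers, SLC16A3 differed by 1.04 (sh6 minus sh1, log2) and SLC16A1 by -0.78. LDHB differed by 0.68, PKM by 0.43 and ENO1 by 0.37. SLC2A6 differed by 0.54, at low counts, and TIGAR by -0.50. With libraries set to equal totals the calls of LDHB and ENO1 with sh1 were lost, and under quantile normalisation ENO1 and PKM turned to 0.17 and 0.018 with sh1, so that for these the opposite direction depends on the scaling. The difference of ENO1 between the hairpins was itself not called under quantile normalisation (0.114, adjusted p = 0.0663). The 2 hairpins also left BBOX1 at different levels, 23.0% of the control mean with sh6 and 12.7% with sh1, and the part of this in the differences was not tested.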

How the results depend on the processing

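The counts of members called at an adjusted p under 0.05 in each comparison, and with both hairpins in the same direction, stayed within 1.5 times their reported values under all alternatives run. The count called in opposite directions was 4 under quantile normalisation, against 7, and the cause was not tested. Leaving out 1 library gave 18 to 20 falls with sh6, 21 to 25 with sh1 and 11 to 16 with both hairpins. The share of all genes called is given for the main test only. The counts at 1.5-fold or more moved on the scale of log2(normalised count + 1), where 2 members rose with sh6, 2 with sh1 and 2 with both, against 1 each, and 8 were higher with sh6 than with sh1, against 5. With equal totals, added after seeing the data, the count of members higher with sh6 than with sh1 at that size was 2. With library weights GPI (0.105, adjusted p = 0.0322), PFKFB3 (-0.163, 0.0181) and MPC1 (-0.175, 0.00958) gained a call with sh1. In that setting ADPGK (0.14, 0.0288), PDK2 (0.172, 0.0334) and DLAT (-0.097, 0.0491) gained a call with sh6, and SLC2A6 (0.187, 0.0609) lost one. For sh6 minus sh1, PFKM (-0.151, 0.0234) gained a call and PGK1 (-0.097, 0.056) lost one. The changes of direction, whose cause was not tested, were these. Under quantile normalisation GAPDH turned to -0.025 with sh6, 0.286 with sh1 and -0.311 for sh6 minus sh1, and with sh1 ENO1 turned to 0.17, PKM to 0.018 and LDHA to 0.099. In the same setting PDK4 turned to 0.009 with sh6, and for sh6 minus sh1 PFKP turned to -0.007 and PFKFB4 to 0.023. With equal totals GAPDH turned to 0.016 and PDK2 to 0.053 with sh1, and PFKFB2 to -0.051 and PDHB to -0.056 for sh6 minus sh1. Library weights turned ALDOA with sh6 to -0.041, and median centring turned PDHA1 with sh6 to 0.013. Leaving out 1 library gave ranges across 0 for PDK4 (-0.069 to 0.002), ALDOA (-0.054 to 0.071) and PDHA1 (-0.056 to 0.028) with sh6, and for SLC2A1 with sh1 (-0.018 to 0.047). It did so for PFKFB4 (-0.13 to 0.075), ENO2 (-0.103 to 0.027) and PDHB (-0.003 to 0.075) for sh6 minus sh1. Of these, the changes with a call in the main test were those of ENO1, PKM and LDHA with sh1 and of PFKP and GAPDH between the hairpins.

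The replicate numbers were not used as a pairing, since only 3 of the 9 pairs of same-numbered libraries had deviations correlated above 0.1 (-0.13 to 0.18), and 4 of 9 correlated best with their own number. The values are batch-corrected by name, and such a step could have removed a shared part. This check therefore cannot show that the libraries were unpaired. With a replicate block 20 members fell with sh6, 25 with sh1 and 16 with both, the added call being PFKFB3 with sh1 (-0.16, adjusted p = 0.0447), and no other member's call changed. Depth limits HKDC1, ALDOC and ENO3, which lay below the level needed for testing.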
